A study of Danio rerio with 17 samples.

Results

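Endosome and vesicle sorting genes were followed along the animal-vegetal axis of the zebrafish (Danio rerio) oocyte. The genes were chosen by symbol: vps, snx or rab followed by a digit, or chmp, with at least 10 reads summed over the 17 libraries. The choice was made with earlier results of these data known. That rule gave 148 of the 15394 genes with 10 or more reads, out of 32520 genes in the count tables. They comprised 35 vps, 32 snx, 69 rab and 12 chmp genes. A further 24 identifiers carried such a symbol but stayed below the minimum, 23 of them with 0 reads and rab3c with 1 read. Just inside the minimum were ENSDARG00000021287, 1 of 3 rab7a entries described here, and snx22, with 10 reads each, all of them in 1 library. Among all matched identifiers, 19 symbols were shared by 39 identifiers, so such genes are given with their Ensembl identifier. A few members carry the name of a family without being part of its machinery, such as vps72, whose vertebrate product belongs to chromatin remodelling complexes.

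A growing fish oocyte takes up vitellogenin from the blood through receptors on its surface, and the cargo passes from coated vesicles to early endosomes, late endosomes and finally the yolk bodies in which it is stored. RAB proteins are small GTPases that give each of these membranes its identity, with RAB5 on early endosomes, RAB11 on recycling endosomes and RAB7 on late endosomes. Retromer and sorting nexins return receptors from endosomes, the CORVET and HOPS complexes tether endosomes to each other before fusion, and ESCRT complexes with their CHMP subunits sort membrane proteins into internal vesicles. These roles come largely from work in yeast and mammalian cells.

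In the study, single frozen oocytes were cut across the axis and pooled into 5 segments, A being the animal one and E the vegetal one, followed by sequencing of total RNA depleted of ribosomal RNA, to find where along the first embryonic axis each RNA lies. The 17 libraries came from 4 untreated oocytes and comprised 4 of segment A (oocytes 1 to 4), 3 of B (1, 2 and 4), 4 of C (1 to 4), 3 of D (1, 2 and 3) and 3 of E (1, 3 and 4). The remaining 3 combinations (2E, 3B and 4D by oocyte number and segment) were not analysed here. The strain, the age of the females and the oocyte stage are not given in the sources used here, and a segment's libraries are single oocytes. Each library began from 5.5 ng of RNA, so a level is a concentration within the RNA of a segment and not a number of molecules in it.

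Libraries held 4054233 to 23672322 reads in genes. By these totals alone, 3 reads were worth 0.127 to 0.740 CPM, the usual depth-scaled unit of read counts. Other CPM values are given with library sizes scaled by TMM, edgeR's trimmed mean method. The 5 libraries of oocyte 1 were shallower (4054233 to 9319365 reads) and had at most 0.00239% spike-in reads, against 0.185% to 0.802% in the other oocytes. Segment C of oocyte 3 had the fewest genes with a read, 8535 against up to 11280. All 8 oocyte markers examined had reads, and their summed level lay between 2899 and 4033 CPM in every library, led by buc and h1m. Follicle cell markers summed to 64.7 to 339.7 CPM, mostly from cyp11a1, while star, amh, inha and fshr had 0 reads. By segment the sums were 64.7 to 339.7 CPM in A, 129 to 254 in B and 89.8 to 203 in C. They were 103 to 226 CPM in D and 195 to 278 in E. All 4 follicle cell markers tested were higher in E than in A (median log2 value of 0.84), and 0 were called. Only 8 of 10 follicle cell symbols and 5 of 8 blood cell symbols matched an entry, and the rest could not be examined. Of the 5 matched blood cell markers only coro1a had reads, at most 17.1 CPM, and hbaa1, alas2, lcp1 and cd74a had 0 reads. Their part in the results was not tested, and for any cell type present fewer cells and less RNA per cell cannot be told apart.

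The best read sorting genes were present along the whole axis, and others were read in only part of the libraries. Of the 148 members, 70 had more than 3 reads in every 1 of the 17 libraries, 17 in 15 or 16 libraries, 44 in 5 to 14 and 17 in 4 or fewer. All 49 members with a mean of at least 50 CPM were among the 70. From A to E, the summed level of all members was 7049.8 ± 515, 6922 ± 137, 6919 ± 498, 6309 ± 232 and 6607 ± 271 CPM (means with the SD between libraries, as throughout; n = 4 in A and C, n = 3 in B, D and E). With TMM, segment D had the lowest sum and segment A the highest, and the libraries of A and E overlapped. The authors' own scaling factors move the median log2 difference of all tested genes to 0.49 between B and A and -0.38 between E and D. The order of the sums thus depends on the scaling. By family, the rab genes summed to 2754 ± 208 CPM in A and 2864 ± 176 in E, the vps genes to 2414 ± 192 and 2061 ± 270.1, the snx genes to 1512 ± 226 and 1349 ± 89.8, and the chmp genes to 369.6 ± 64.9 and 333 ± 67.8.

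Between the vegetal segment E and the animal segment A, 1 sorting gene passed the test, rab40c, which was higher at the vegetal end. It was 1 of 135 members tested (0.741%), where the same test called 240 of 12549 genes (1.91%) over the whole table, 129 of them (1.03%) higher in E. All 17 libraries entered 1 edgeR fit (quasi-likelihood F-test), with p-values adjusted by the Benjamini-Hochberg method over all genes tested and a call at an adjusted p under 0.05. Unless an alternative is named, a call by edgeR means a call under these main settings. The other 13 members were too rarely read to be tested, the highest at a mean of 2.40 CPM. At an unadjusted p under 0.05, 5 members (3.70%) differed between the ends, against 8.05% of all genes. A joint test for any difference among the 5 segments called rab40c and vps18, 2 members against 209 of all genes (1.67%), and a linear trend from A to E called rab40c, 1 member against 303 of all genes (2.41%). With the oocyte as a block the trend called 2 members, rab40c and vps18, against 306 of all genes (2.44%).

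**Figure D1:**
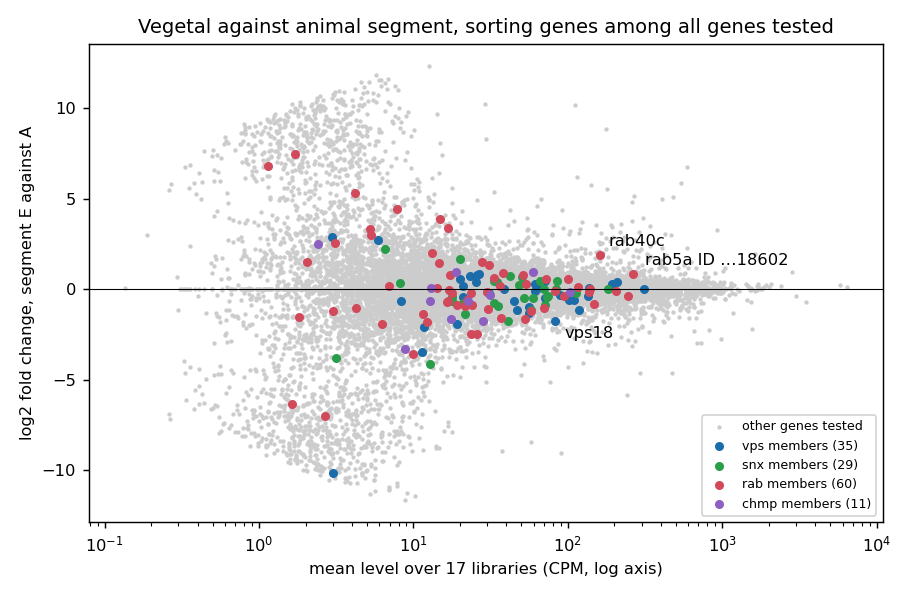
Log2 fold change of segment E against segment A (vertical axis) and mean CPM over 17 libraries (horizontal log axis) for each gene tested; coloured points are the 135 sorting genes by family and grey points all other genes. The sorting genes lie within the grey cloud and spread widely at low levels, where a fitted fold change of a gene without reads at 1 end has no fixed size; rab40c, at 1.89, is the only sorting gene called.

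RAB40 proteins are atypical RAB GTPases that carry a SOCS box, through which they join ubiquitin ligase complexes. In segment A, rab40c (ENSDARG00000061208) was read at 84.9, 44.6, 85.5 and 155 CPM in oocytes 1 to 4. In segment E it reached 361, 227 and 441 CPM in oocytes 1, 3 and 4. All libraries of E lay above all libraries of A, and E was above A within each of oocytes 1, 3 and 4.

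The segments between lay in order, apart from A and B. Segment B held 56.6, 77.9 and 84.8 CPM (oocytes 1, 2 and 4), and segment D 192, 206 and 188 CPM (oocytes 1, 2 and 3). Segment C held 109, 106 and 105 CPM in oocytes 1, 2 and 3 but 201 CPM in oocyte 4. Libraries of A and B overlapped, while every library of D was above every library of B. The means were 92.4 ± 45.7, 73.1 ± 14.7, 130.2 ± 46.96, 195 ± 9.77 and 343 ± 108 CPM from A to E.

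The log2 fold change of rab40c between E and A was 1.89 ± 0.40 (SE), with a 95% interval of 1.09 to 2.69 and an edgeR adjusted p of 0.00174. Its slope along the axis was 0.49 ± 0.086 on the log2 scale per segment (edgeR adjusted p of 0.000112), and the joint test gave an edgeR adjusted p of 0.000614. The difference between the ends and the slope passed under all 28 alternatives, with an edgeR or DESeq2 adjusted p of at most 0.0404 and 0.0111, respectively. The joint call was lost in 1 of 28, without oocyte 1 (edgeR adjusted p of 0.0762). The second RAB40 gene, rab40b, was read at 2.24 ± 4.38 CPM in A and 23.4 ± 18.2 in E, and was not called (3.39 ± 2.00 on the log2 scale, edgeR adjusted p of 0.694).

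**Figure D2:**
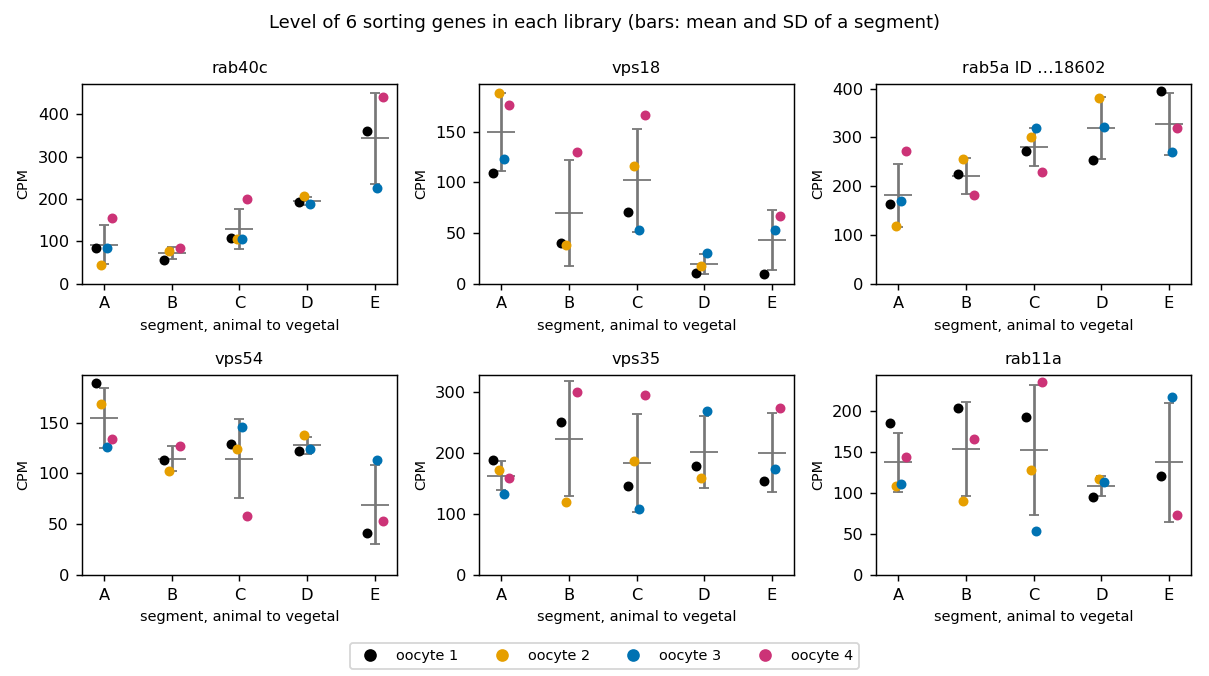
CPM of 6 sorting genes in each library by segment (horizontal axis, animal to vegetal); points are libraries coloured by oocyte, and grey bars show the mean and SD of a segment. Levels of rab40c in E (227 to 441 CPM) lie above all of A (44.6 to 155 CPM), vps18 is lowest in D, and vps35 and rab11a show no order along the axis.

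The second gene of the joint test, vps18, encodes a core subunit of the CORVET and HOPS tethers. In segment A, vps18 (ENSDARG00000070433) was read at 109.6, 188, 123 and 176 CPM in oocytes 1 to 4. In segment D it was at 10.8, 17.5 and 30.2 CPM in oocytes 1, 2 and 3, and in E at 10.1, 52.8 and 67.2 CPM in oocytes 1, 3 and 4. Every library of D and of E was below every library of A, and those of D and E overlapped.

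Segments B (40.4, 38.3 and 130.3 CPM) and C (71.3, 116, 53.5 and 167 CPM) spread widely for vps18, with oocyte 4 highest in both. The joint edgeR adjusted p was 0.0373. This call held in 16 of 28 alternatives. It was lost with the authors' scaling factors (edgeR adjusted p of 0.102), with a filter at a mean of 10 CPM (0.0801) and without oocyte 1 (0.250), 2 (0.296) or 4 (0.153), the highest value being 0.296. It was also lost without segment A of oocyte 2 (0.171), 3 (0.0719) or 4 (0.115), segment C of oocyte 2 (0.0635) or 4 (0.0704), and segment D of oocyte 1 (0.205) or 2 (0.0964). Between the ends, vps18 differed by -1.78 ± 0.64 on the log2 scale (edgeR adjusted p of 0.262), which passed under none of the 28 alternatives. The slope was -0.50 ± 0.15 per segment with an edgeR adjusted p of 0.0587, and 0.0173 with the oocyte as a block. That slope was also called with DESeq2 (adjusted p of 0.0297) and without a filter (edgeR adjusted p of 0.0180). The same held without segment B of oocyte 1 or 2, segment C of oocyte 4 or segment E of oocyte 4. Under the remaining alternatives it was not called.

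None of the other CORVET and HOPS subunits was called by edgeR. The HOPS subunit vps39 was read at 125 ± 52.8 CPM in A and 83.4 ± 24.9 in E (log2 fold change of -0.58 ± 0.54). The shared core subunits vps11, vps16 and vps33a were at 17.8 ± 12.6, 27.2 ± 30.3 and 18.8 ± 15.4 CPM in A and at 30.8 ± 26.9, 31.3 ± 18.9996 and 30.8 ± 29.04 CPM in E. The HOPS subunit vps41 was at 30.8 ± 16.4 CPM in A and 7.21 ± 9.84 in E, and the CORVET subunit vps8 at 17.2 ± 24.6 and 1.55 ± 2.39. Of the 7 subunits among the members, 3 were higher in E and 4 lower, and for the 5 read below 50 CPM the SD was about as large as the mean in several segments. The CORVET subunit tgfbrap1, outside the symbol rule, was at 41.6, 76.4, 42.1 and 56.1 CPM in A. In E it was at 190, 112 and 170 CPM, all above A, and it was not called by edgeR.

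Of the early endosome genes, edgeR called none under the main settings. The GTPase rab5a, which governs entry of cargo into early endosomes, was present under 2 identifiers. In segment A, ENSDARG00000018602 was read at 164, 119, 170.3 and 273 CPM in oocytes 1 to 4. In segment E it was at 396, 269.8 and 319 CPM in oocytes 1, 3 and 4. The 2 ends overlapped only through segment A of oocyte 4, which was above segment E of oocyte 3.

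The segment means of this rab5a gene (ENSDARG00000018602) were in the order of the axis, at 181 ± 65.1, 221 ± 37.3, 281 ± 39.01, 319 ± 63.2 and 328 ± 63.6 CPM, although neighbours differed by less than their SDs together. The log2 fold change was 0.85 ± 0.31 between E and A, with a 95% interval of 0.23 to 1.48 and an edgeR adjusted p of 0.269. The slope of 0.23 ± 0.070 per segment had an edgeR adjusted p of 0.0762. That slope passed the threshold in 5 of 28 alternatives, among them DESeq2 (adjusted p of 0.00515), and the value without oocyte 1 was the highest, 0.422. With the authors' factors the joint test called this gene (edgeR adjusted p of 0.0154) and not vps18. That scaling gave 2 members in the joint test, against 462 of all genes (3.68%), where TMM gave 1.67% of all genes. The other rab5a gene (ENSDARG00000007257) was at 25.1 ± 19.6 CPM in A and 15.1 ± 10.9 in E.

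The remaining RAB5 genes were not called by edgeR. Transcripts of rab5c (ENSDARG00000026712) were at 134 ± 37.8, 133 ± 25.1, 129.7 ± 39.4, 169 ± 82.3 and 119 ± 50.8 CPM from A to E, and their log2 difference of -0.17 ± 0.43 changed sign with the authors' factors. Those of rab5b (ENSDARG00000016059) were at 9.39 ± 9.13 CPM in A and 2.49 ± 4.31 in E. The endosomal and Golgi GTPase rab14 (ENSDARG00000074246) was at 318, 271, 261 and 256 CPM in segment A (oocytes 1 to 4) and at 227, 234 and 174 CPM in E (1, 3 and 4). With TMM its libraries did not overlap between the ends, but with the authors' factors they did. For the log2 difference of -0.38 ± 0.31 the edgeR adjusted p was 0.910.

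Recycling endosome genes of the RAB11 group were not called by edgeR. Transcripts of rab11a (ENSDARG00000041450) were at 137 ± 36.02, 153 ± 57.3, 152 ± 79.1, 108 ± 11.8 and 137 ± 72.995 CPM from A to E. Its single libraries ranged from 53.6 CPM (C of oocyte 3) to 234 CPM (C of oocyte 4), so the spread lay within segments. For rab11b (ENSDARG00000041878) the means were 108 ± 27.9 CPM in A and 116 ± 15.1 in E, a difference of 0.11 ± 0.44 on the log2 scale. The third RAB11 gene, rab11al (ENSDARG00000014340), was at 1.13 ± 2.199 CPM in A and 25.1 ± 23.8 CPM in E, with single libraries of E from 1.61 to 49.2 CPM (edgeR adjusted p of 0.756). Taking the 16 tested GTPases of early and recycling endosomes as a group, 5 were higher and 11 lower in E, their median difference on the log2 scale being -0.13, and 10 were higher and 6 lower with the authors' factors. Over all tested genes the median was near 0 with TMM and 0.22 with the authors' factors. None of the 16 was called by edgeR under the main settings, while rab5a (ENSDARG00000018602) was called under some edgeR alternatives. DESeq2 called that rab5a gene between E and A (DESeq2 adjusted p of 0.0381) and rab35 between B and A (0.0345).

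Genes for partners and regulators of RAB proteins were not called by edgeR under the main settings. Of the 12 tested genes named for a regulator or partner of a RAB, 9 were lower in E and 3 higher, and their median log2 value was -1.27. The same 9 to 3 split held with the authors' factors (median of -1.06). DESeq2 called rab11fip1b between C and B (DESeq2 adjusted p of 4.84e-05), a gene with 22, 0 and 240 reads in the libraries of B and 0 in C. The RAB11 partner rab11fip1a (ENSDARG00000046124) was at 72.1, 95.3, 60.1 and 106 CPM in segment A of oocytes 1 to 4. In segment E it was at 41.7, 0.239 and 36.8 CPM in oocytes 1, 3 and 4. The ends did not overlap, and edgeR gave a log2 difference of -1.67 ± 0.91 at an adjusted p of 0.649. Summed over the 13 members of this group, the level was 396 ± 86.6 CPM in A, 260.2 ± 21.7 in C and 202 ± 22.3 in E.

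No late endosome gene was called by edgeR under the main settings. Of the rab7a genes, which mark late endosomes and direct their fusion with lysosomes, ENSDARG00000020497 was at 119 ± 66.7 CPM in A and 91.02 ± 32.98 in E (-0.39 ± 0.54 on the log2 scale). The other tested rab7a gene, ENSDARG00000087243, had the opposite sign, with 37.6 ± 15.1 CPM in A, 81.2 ± 19.02 in D, 63.7 ± 31.1 in E and a log2 value of 0.76 ± 0.76. Neither was called by edgeR or DESeq2, and the difference between these 2 genes was not tested. The gene rab9b (ENSDARG00000103391), of a family that returns receptors from late endosomes to the Golgi, had 0 reads in all 4 libraries of A and all 3 of B and D. It was read in segment C of oocytes 1 and 4 (91 and 116 reads) and in segment E of oocyte 3 (53 reads), and in no other library.

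The retromer, which retrieves receptors from endosomes, had no subunit called by edgeR. Its scaffold vps35 (ENSDARG00000008224) was at 163 ± 23.6, 223 ± 93.6, 184 ± 80.5, 202 ± 58.7 and 200.4 ± 64.04 CPM from A to E. The log2 fold change was 0.30 ± 0.38, with a 95% interval of -0.45 to 1.05. For vps26a (ENSDARG00000056549) the means were 122 ± 54.5 CPM in A and 80.8 ± 27.8 in E (log2 fold change of -0.60 ± 0.48), and for vps29 (ENSDARG00000069521) 22.9 ± 5.34 and 41.5 ± 24.2 (log2 fold change of 0.86 ± 1.28).

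The paralogous vps26b was unevenly read between its entries. One entry, ENSDARG00000015823, was at 14.4 ± 20.02 CPM in A and 21.2 ± 13.3 in E. The other, ENSDARG00000055433, had 0 reads in segment A and at most 3 in segment E. Between them it reached 5.05 and 7.11 CPM in B of oocytes 2 and 4, 16.4 CPM in C of oocyte 1 and 16.3 CPM in D of oocyte 3, with 0 reads in 1 library of each of these segments. For vps26c (ENSDARG00000075650), a subunit of the related retriever complex, the means were 94.1 ± 60.1 CPM in A and 66.5 ± 38.4 in E (-0.50 ± 0.66 on the log2 scale).

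Sorting nexins bind endosomal lipids and shape or sort the membrane. Of the nexins that work with retromer, snx1 (ENSDARG00000071031) was at 194 ± 42.8 CPM in A and 194 ± 94.3 in E, and snx5 (ENSDARG00000020442) at 62.1 ± 39.7 and 83.9 ± 9.04. Their log2 fold changes were 0.00059 ± 0.39 and 0.43 ± 0.58, with 95% intervals of -0.78 to 0.78 and -0.72 to 1.59. The nexin snx30 (ENSDARG00000069601) was at 138 ± 33.4 CPM in A, 73.2 ± 27.1 in D and 118 ± 23.8 in E. Of the 8 tested nexins and sorting partners of retromer, 6 were higher and 2 lower in E, and of the 20 other tested nexins 7 were higher and 13 lower, the same counts as with the authors' factors. The retromer group had 5 higher and 3 lower with RLE factors and with library sizes alone. The other nexins had 6 higher and 14 lower with library sizes alone. The difference between those 2 groups was not tested. No nexin was called by edgeR, while DESeq2 called snx8 (ENSDARG00000074842) between E and A and between E and D (DESeq2 adjusted p of 0.00348 and 0.00015), and snx9 (ENSDARG00000000837) between D and C (0.0174). The calls of snx8 rested on few libraries: it had 4 reads in a single library of A, 215 in a single library of D and 0 in E.

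No ESCRT gene was called by edgeR, or by DESeq2 between the ends or between neighbours. The ESCRT-III subunits chmp2b (ENSDARG00000002190) and chmp4ba (ENSDARG00000016255), which form filaments at the neck of budding vesicles, were at 125 ± 19.8 and 51.6 ± 23.9 CPM in A and at 110.2 ± 32.2 and 97.7 ± 45.8 CPM in E. The log2 fold change was -0.18 ± 0.49 for chmp2b and 0.92 ± 0.71 for chmp4ba. Another subunit, chmp4c (ENSDARG00000007418), was at 38.6 ± 29.8 and 31.3 ± 27.1 CPM.

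The ATPase vps4b (ENSDARG00000069175), which takes these filaments apart, was at 178 ± 83.2 CPM in A and 234 ± 53.96 in E (log2 fold change of 0.39 ± 0.35). The ESCRT-I subunit vps37d (ENSDARG00000097055) had an unadjusted p of 0.0471 between the ends and an edgeR adjusted p of 0.612. It was read at 7.34, 3.26, 24.95 and 0 CPM in A, the last being 0 reads, and had 0 reads in all 3 libraries of E. Of the 11 tested ESCRT-III genes, 4 were higher and 7 lower in E, and of the 8 of ESCRT-I and ESCRT-II 3 were higher and 5 lower; with the authors' factors these counts were 5 and 6, and 4 and 4.

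The GARP complex, which tethers vesicles from endosomes at the Golgi, had 1 subunit among the members with the smallest p. In segment A, vps54 (ENSDARG00000102960) was at 189, 168, 126 and 134 CPM in oocytes 1 to 4, and in segment E at 40.9, 113 and 52.8 CPM in oocytes 1, 3 and 4. All of E lay below all of A with TMM, though the ends overlapped with the authors' factors. Segments B, C and D held means of 114 ± 12.3, 114 ± 38.9 and 128 ± 8.38 CPM. Its log2 difference between E and A was -1.16 ± 0.47, at an edgeR adjusted p of 0.422, and DESeq2 gave an adjusted p of 0.0438. Its partners vps51, vps52 and vps53 were at 72.5 ± 36.1, 11.9 ± 15.1 and 96.01 ± 22.7 CPM in A and at 36.8 ± 10.4, 7.51 ± 11.97 and 75.3 ± 24.5 CPM in E. The summed level of the 5 GARP and EARP genes was 349 ± 49.01 CPM in A and 208 ± 62.9 in E. Of these genes 4 were lower in E and 1 higher, also with the authors' factors.

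Among GTPases of the Golgi, the endoplasmic reticulum and the secretory route, edgeR called none under the main settings. DESeq2 called rab13 and rab42b, both without reads in segment D, between D and C (DESeq2 adjusted p of 8.22e-05 and 6.65e-05) and between E and D (1.2e-07 and 0.000709). In segment C, rab13 had 8 reads and rab42b 152, each in a single library. In segment E, rab13 had 60, 124 and 1 reads and rab42b 15, 98 and 0. Transcripts of rab2a (ENSDARG00000020261), which acts between the endoplasmic reticulum and the Golgi, were at 205 ± 26.8 CPM in A and 190.2 ± 47.95 in E. Those of rab18 (ENSDARG00000098344), found on lipid droplets and the endoplasmic reticulum, were at 174 ± 99.8 and 97.01 ± 49.1 CPM (-0.85 ± 0.45 on the log2 scale, edgeR adjusted p of 0.643). The Golgi GTPase rab33a (ENSDARG00000057394) was nearly without reads in A, at 0, 2, 51 and 1 reads in oocytes 1 to 4, and stood at 8.19, 23.6 and 3.13 CPM in E of oocytes 1, 3 and 4. Its ends did not overlap (edgeR adjusted p of 0.649).

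The gene rab39b (ENSDARG00000036501) had 0 reads in all of A and D. It was read in B of oocyte 2 (210 reads, and 1 read in oocyte 1), in C of oocyte 1 (119 reads) and in E of oocyte 4 (81 reads), and in no other library. Of 15 tested GTPases of the endoplasmic reticulum and Golgi group, 9 were higher and 6 lower in E, and of 9 on the secretory route and plasma membrane 5 were higher and 4 lower. Outside these groups, vps9d1 (ENSDARG00000019195), whose name refers to a domain of RAB5 exchange factors, was at 325 ± 66.6, 301 ± 61.3, 316 ± 144, 272 ± 36.2 and 324 ± 93.01 CPM from A to E.

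**Figure D3:**
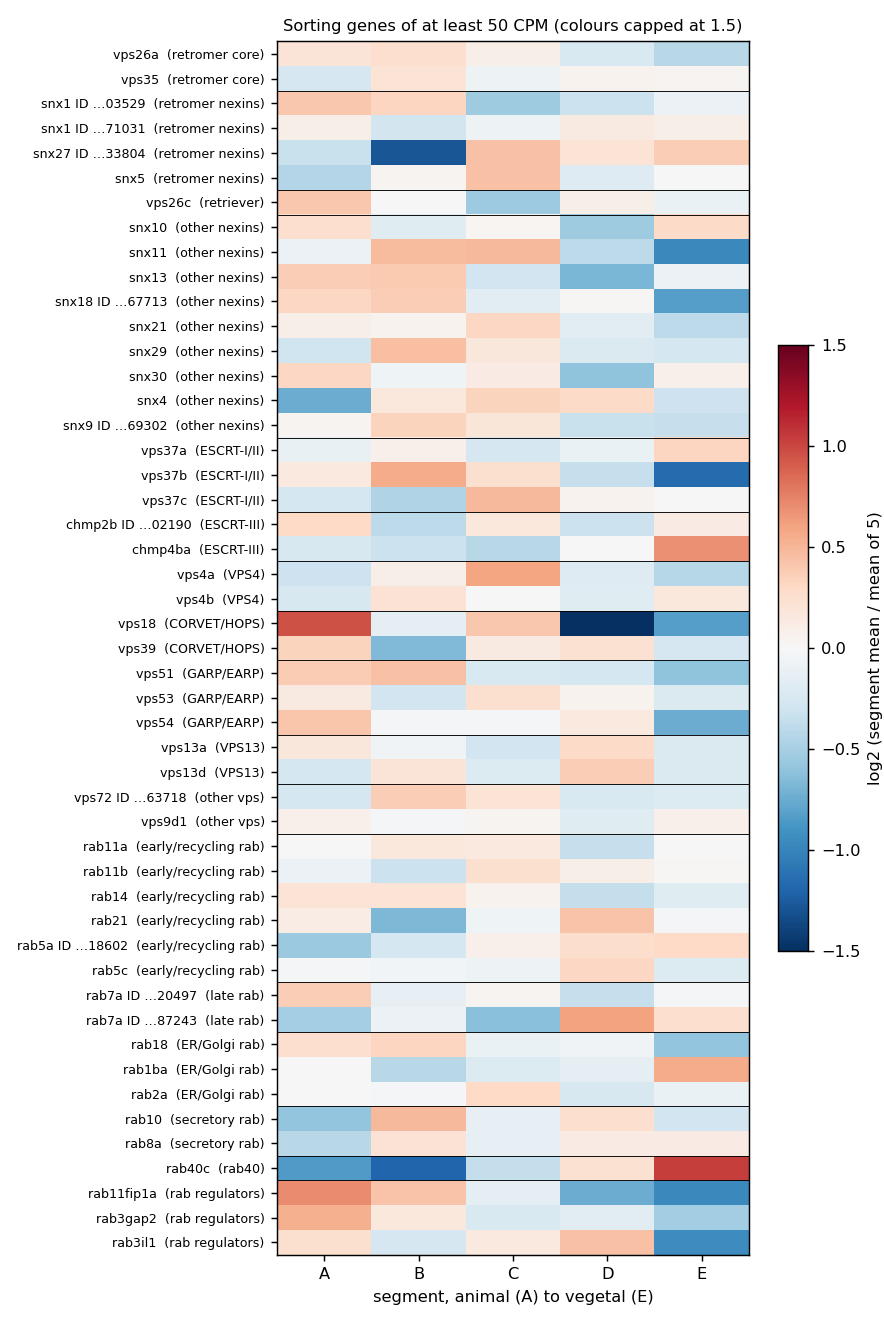
Segment mean of each of the 49 sorting genes with at least 50 CPM, as log2 of its ratio to the mean of the 5 segment means (colour, red higher and blue lower), in columns from segment A to E and rows grouped by role. Most rows stay pale, rab40c is reddest in E, and vps18 is bluest in D; the colours show means only, without the spread between libraries.

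For the 49 members of at least 50 CPM, the highest segment mean was 1.196 to 7.66 times the lowest, with a median of 1.88, against a median of 1.73 for all tested genes of that level. The 5 with the smallest variation among segment means were vps9d1, snx1 (ENSDARG00000071031), vps35, rab11a and vps4b. A 95% interval of the difference between E and A that lay within 2-fold either way was reached by 6 of the 49 (12.2%), and by 1024 of 4340 genes of that level (23.6%). For most of these members a 2-fold difference between the ends was thus not excluded. The median SE of that difference was 0.59 on the log2 scale for members of at least 50 CPM, 1.64 for those between 10 and 50 CPM and 3.28 for those under 10 CPM.

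**Figure D4:**
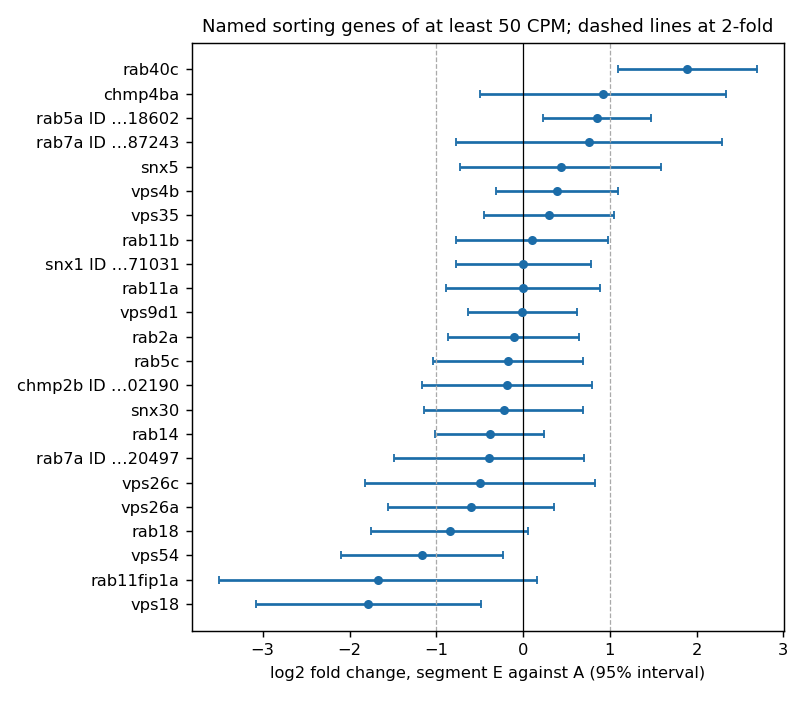
Log2 fold change of segment E against segment A with its 95% interval (horizontal axis) for the named sorting genes of at least 50 CPM, ordered by size; dashed lines mark 2-fold. The interval of rab40c lies wholly above 1 (1.09 to 2.69), and those of rab5a, vps54 and vps18 exclude 0 before adjustment for the number of genes tested.

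The direction of the differences was uneven. Of the 135 members tested, 59 (43.7%) were higher in E and 76 lower, against 50.1% higher over all genes. By mean level, 14 were higher and 11 lower under 10 CPM, 25 and 36 from 10 to 50 CPM, and 20 and 29 from 50 CPM. Without regard to sign, the median size of the log2 fold change was 0.76, against 0.70 for all genes. With sign, the median log2 fold change was -0.18 against 0.00079. Without single libraries that median was -0.084 (A of oocyte 1), -0.062 (A of oocyte 4), -0.076 (E of oocyte 1) and -0.12 (B of oocyte 1, or any library of D). It was -0.27 without E of oocyte 3, -0.23 without E of oocyte 4 and -0.25 with the oocyte as a block. Without oocyte 1, 2, 3 or 4 the median was -0.028, -0.12, -0.29 and -0.070. Along the whole axis 50 members (37%) had a rising slope, against 50.8% of all genes. Without oocyte 1, 2, 3 or 4 that share of the members was 45.3%, 39.4%, 40.1% and 44.1%. It was 36.4% to 44.2% without single libraries. With the authors' factors, which move the median of all genes to 0.22, 70 members were higher and 65 lower, with a median of 0.034. A rising slope was then seen in 69 (51.1%), with a median slope of 0.014 against 0.080 for all genes. With TMM these median slopes were -0.052 and 0.0041. Under both scalings the members' median stayed below that of all genes, between the ends and along the axis. With TMM, segment means peaked in A for 33 members (24.4%), in B for 36 (26.7%), in C for 28 (20.7%), in D for 16 (11.9%) and in E for 22 (16.3%). Over all genes the shares were 19.9%, 19.9%, 17.3%, 19.6% and 23.3%. Peak segments were not counted with the authors' factors, which shift whole segments against each other. Libraries of E lay wholly below those of A for 11 members (8.15%), against 3.82% of all genes, and wholly above for 2 (1.48%), against 4.61%. With the authors' normalized values these numbers were 5 members (3.70%) below and 6 (4.44%) above, against 2.73% and 6.81% of all genes. These counts thus depend on the scaling.

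With TMM, the 11 members wholly lower in E were vps18, vps54, rab11fip1a, rab14, chmp5b, rab27a, rab35, rab3gap2, rab3il1, snx15 and vps13c. Those not described above were named after their values were seen. With the authors' normalized values only vps18, rab11fip1a, chmp5b, rab27a and rab3il1 stayed wholly lower. Among the 11, rab3gap2, a subunit of an enzyme that acts on RAB3 and RAB18, was at 99.7 ± 31.5 CPM in A and 48.3 ± 8.51 in E. Transcripts of rab35, a GTPase of the plasma membrane and recycling endosomes, were at 70.2, 78.4, 26.2 and 82.7 CPM in A and at 22.5, 0.621 and 11.5 CPM in E. None of the 11 was called between the ends by edgeR.

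Steps between neighbouring segments gave calls of members with DESeq2 and none with edgeR. No member was called by edgeR between B and A (1 of 12549 genes called, 0.00797%), C and B (0.0478%), D and C (0.104%) or E and D (0.175%). At an unadjusted p under 0.05 there were 3, 4, 3 and 1 members in that order, against 4.80%, 5%, 5.67% and 4.05% of all genes, and DESeq2 called 1, 1, 4 and 3, which were 7 different members, against 3.41%, 3.17%, 3.45% and 3.29% of all genes. The members called by DESeq2 included vps18 between D and C (log2 fold change of -2.39, DESeq2 adjusted p of 0.00242).

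Genes that act with these members in uptake and endosomal transport were examined as a list of 114 symbols, 90 of which matched an entry. This list, too, was chosen with earlier results of these data known. Of the 85 tested, 41 were higher and 44 lower in E, their median log2 value was -0.026, and 4 were called between E and A, 3 higher and 1 lower. The joint test called 3 of them and the linear trend 4. In the same comparisons 1.91%, 1.67% and 2.41% of all genes were called.

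The dynamin gene dnm2a (ENSDARG00000069937), whose product cuts coated vesicles from the membrane, was at 77.9, 44.4, 22.3 and 107 CPM in segment A of oocytes 1 to 4. In segment E it was at 401, 270.1 and 389 CPM in oocytes 1, 3 and 4, all above A, and the means rose from 63.01 through 80.1, 137 and 213 to 353 CPM. The log2 fold change was 2.49 ± 0.41 (edgeR adjusted p of 3.03e-05), called in all 28 alternatives. Its slope of 0.63 ± 0.088 per segment was steeper than the 0.49 ± 0.086 of rab40c, though the difference between the 2 genes was not tested.

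Both called lysosomal membrane genes were also higher in E. Transcripts of lamp2 (ENSDARG00000014914) were at 1702, 2160.3, 2283 and 2128 CPM in segment A (oocytes 1 to 4) and at 4834, 3786 and 3570.4 CPM in E (1, 3 and 4), without overlap. The log2 fold change was 0.97 ± 0.20 (edgeR adjusted p of 0.00153, and 0.256 without oocyte 1). For lamp1b (ENSDARG00000092610) it was 1.19 ± 0.34 (edgeR adjusted p of 0.0449), which passed in 18 of 28 alternatives, with a highest value of 0.675 without oocyte 1.

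One partner was lower at the vegetal end. The gene zfyve26 (ENSDARG00000040131), whose product acts in lysosome renewal, was at 179.5, 249.9, 145 and 174 CPM in segment A (oocytes 1 to 4) and at 49.4, 48.1 and 60.9 CPM in E (1, 3 and 4). Its log2 fold change was -1.83 ± 0.46 (edgeR adjusted p of 0.0140), which passed in 23 of 28 alternatives with a highest value of 0.167 without oocyte 1. The endocytic adaptor dab2 (ENSDARG00000031761) was at 1653 ± 156 CPM in A and 1107 ± 175 in E and was not called (log2 fold change of -0.58 ± 0.22, edgeR adjusted p of 0.321). The receptor gene vldlr, whose product binds vitellogenin in fish and birds, was at 489 ± 84.97 CPM in A and 689.8 ± 107 in E and was not called either (log2 fold change of 0.50 ± 0.26, edgeR adjusted p of 0.632). It was named for that role and not by its values.

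**Figure D5:**
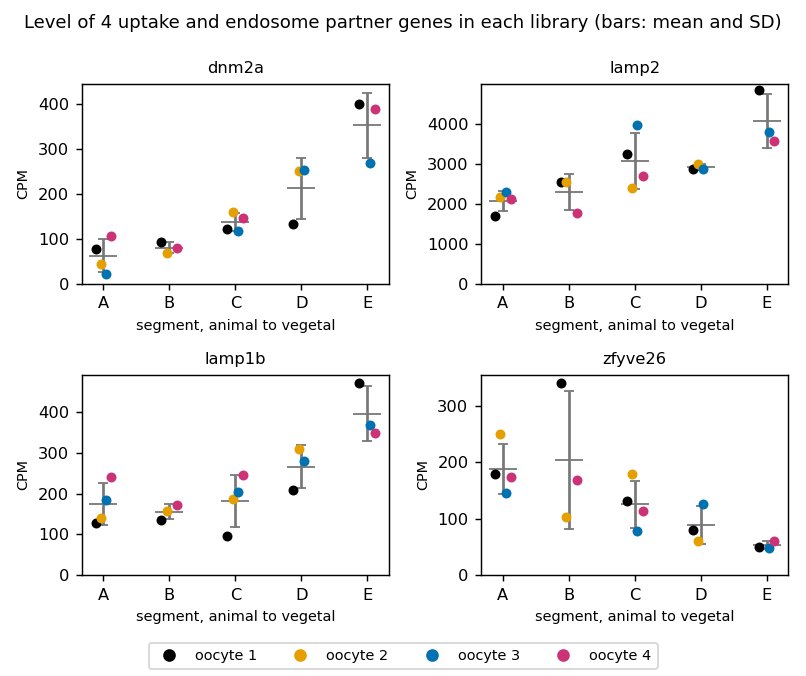
CPM of the 4 partner genes called between segments E and A in each library by segment (horizontal axis, animal to vegetal); points are libraries coloured by oocyte, and grey bars show the mean and SD of a segment. Every library of E lies above every library of A for dnm2a, lamp2 and lamp1b, and below for zfyve26.

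Single sorting genes could be well read in 1 library and nearly unread in another of the same segment. In segment C, 99 members reached 500 reads in 1 library or more, and 20 of them (20.2%) had 3 reads or fewer in another. In segment E this was so for 7 of 86 (8.14%). Over all genes tested the shares were 17.2% and 9.22%. An example is chmp1a, an ESCRT-III gene picked after its values were seen, with 706 reads in C of oocyte 4 and 0 in C of oocyte 3. At this spread, 1 library without reads of a member does not show that its RNA was absent from that segment.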

How the data were processed

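The authors deposited a table of read counts per gene for each library, and a table of normalized signal in which the counts of each library are divided by 1 factor. Multiplying that signal back gave whole reads, within 0.01, for 100% of values, all equal to the deposited counts. Both tables thus hold the same counts, and the authors' factors entered as an alternative scaling. How the factors were set is not given in the sources used here. The submitters' processing notes name Trimmomatic, STAR 2.5.3a, HTSeq, DESeq2 and the build GRCz11, without parameters. Reads outside genes (4.60% to 6.10%), in overlapping genes (0.502% to 0.633%) or with several alignments (6.88% to 14.2%) and spike-ins stayed out of library sizes and tests. Paralogs with near-identical copies, and genes overlapping another gene, are therefore uncertain; use of strand is not stated.

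Symbols came from a table of identifiers (29201 of 32520 matched, 89.8%). No sequence is printed, because no sequence of these genes was used here. In R 4.3.3, edgeR 4.0.16 tested genes retained by filterByExpr (minimum count 10) with TMM scaling and 1 coefficient per segment, or 1 slope for the trend; DESeq2 1.42.0 was an alternative. The code was run on simulated data, with set changes only in genes of at least 50 CPM and no effect of the oocyte. That run covers neither changes at lower levels nor the pairing. SE is the absolute log2 fold change over the square root of F. Intervals cover the spread between these libraries. Members, gene lists and roles were chosen with earlier results of these data known. Named members were those called in any of the 3 tests over the axis, the 5 smallest p between E and A in each direction, the 3 highest mean CPM of each family, the 5 most even of at least 50 CPM, and all tested retromer core, rab5, rab7 and rab11 genes. Partner genes were named if called or among the 2 smallest p in each direction. Subunits of CORVET, HOPS and GARP among the members were named together. The CORVET subunit tgfbrap1 was added from the partner list after its values were seen.

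Labels number the oocyte of each library, so libraries of 1 oocyte are paired. Deviations from segment means correlated with a median of 0.071 (-0.087 to 0.28) over 28 pairs of the same oocyte and -0.035 over 87 other pairs. Alternatives were other scalings, filters and tests, the oocyte as a block, and leaving out each library or oocyte.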

Additional observations from a re-analysis of the deposited data

Results flagged for a closer look

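In the segments with 4 libraries, A and C, 1 library lay far apart from the rest in 14 of 88 sets of values examined. Chance gives about 1 in 20 for normally distributed values, but not for the 5 of the 14 in which the other 3 libraries had 3 reads or fewer each. No cause was tested. Single libraries stood above the other 3 for rab40c in segment C (200.6 CPM in oocyte 4), rab39b (ENSDARG00000036501) in C (15.4 CPM in oocyte 1), rab33a in A (2.97 CPM in oocyte 3) and vps37d in C (0.072 CPM in oocyte 2, 1 read). The same was seen for chmp4c in A (82.8 CPM in oocyte 4), rab11al in A (4.43 CPM in oocyte 3), rab5b in C (15.9 CPM in oocyte 2) and vps26b (ENSDARG00000055433) in C (16.4 CPM in oocyte 1). Single libraries stood below the other 3 for rab11fip1a in C (30.7 CPM in oocyte 3), rab2a in A (165 CPM in oocyte 4), rab5c in A and C (78.0 and 71.1 CPM, both in oocyte 3) and vps29 in A (14.9 CPM in oocyte 1). The summed snx level in A was 1176 CPM in oocyte 2 and 1581 to 1647 CPM in the others. Of the low libraries, 3 were from oocyte 3.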

How the results depend on the processing

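Of the members called, edgeR gave 1 between E and A, 2 in the joint test, 1 in the trend and 0 in the neighbouring steps. DESeq2 gave 4 between the ends (rab40c, rab5a as ENSDARG00000018602, vps54 and snx8 as ENSDARG00000074842), 3 in the trend and 7 over the steps, against 5.47%, 3.94% and 3.17% to 3.45% of all genes. The call of snx8 between the ends rested on 4 reads in a single library of A and 0 reads in E. A filter at a mean of 10 CPM gave 1 in the joint test (2.03% of all genes) and 2 in the trend (3.33%), no filter gave 6 in the trend (6.91%), and the replicate block gave 2 there (2.44%). Of the 6 without a filter, rab4a, rab7a (ENSDARG00000021287) and rab11fip4 (ENSDARG00000090170) had reads in a single library each. Leaving out single libraries or oocytes gave 0 to 2 in the joint test (1.17% to 1.88% of all genes) and 1 to 3 in the trend (1.57% to 2.68%). The joint count was 0 without oocyte 1. Without segment B of oocyte 1 the trend also called rab8b (edgeR adjusted p of 0.0493).

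Of 978 comparisons of a named gene's difference between E and A with an alternative, 898 kept their direction and side of the threshold, 16 lost a call, 3 gained one and 61 changed sign. No fold is given for the 4 named genes at the floor in A or E. All sign changes were in genes with no call. For vps9d1 the log2 value became 0.0042 with RLE factors, 0.21 with the authors' factors, 0.036 without a filter, 0.0052 with the stricter filter and 0.0042 with DESeq2. That of snx1 (ENSDARG00000071031) became -0.0041 with RLE factors, -0.044 with library sizes alone, -0.0038 with DESeq2 and -0.18 with the replicate block. For rab11a it became 0.22 with the authors' factors, 0.041 without a filter and 0.00047 with the stricter one. With the authors' factors it was 0.11 for rab2a, 0.034 for chmp2b and 0.046 for rab5c, which was 0.052 with the block. Leaving out libraries or oocytes gave -0.19 to 0.23 for vps9d1, -0.48 to 0.32 for snx1, -0.41 to 0.0073 for snx30, -0.27 to 0.091 for rab2a and -0.53 to 0.028 for chmp2b. It gave -1.41 to 0.72 for chmp4c, -0.59 to 0.32 for rab11a, -0.12 to 0.27 for rab11b, -1.83 to 0.22 for rab5a (ENSDARG00000007257), -0.75 to 0.16 for rab5c, -1.02 to 0.055 for rab7a (ENSDARG00000020497) and -1.14 to 0.020 for vps26c. The replicate block changed no other call among the members.

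Members under 10 CPM had a median SE between E and A of 3.28 on the log2 scale and a median biological coefficient of variation of 2.82, against 0.59 and 0.567 from 50 CPM, and the part of depth in this was not tested. The cause of these shifts was not tested.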
